A study of Ovis aries with 7 samples.

Results

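Transcripts of the urea transporter gene and of 4 enzymes of the urea cycle were followed through the cell classes of the sheep striatum. The members were the rows of the authors' gene list whose symbol is SLC14A1 (ENSOARG00020024788), ASS1 (ENSOARG00020001391), ASL (ENSOARG00020015387), ARG1 (ENSOARG00020015700) or ARG2 (ENSOARG00020019519). All 5 were present, each as 1 of 26479 features. Single-nucleus RNA sequencing was done on frozen striatum of 12 sheep aged 5 years, 6 of the OVT73 line and 6 controls. OVT73 sheep carry a transgene of full-length human huntingtin cDNA with an expanded CAG repeat, driven by upstream sequence of the human HTT gene, as a model of Huntington's disease before the loss of striatal cells. Nuclei were sequenced as 7 libraries, of which the 3 OVT73 libraries each pooled 2 sheep, control libraries 1 and 2 held 1 sheep each, and control libraries 3 and 4 pooled 2 sheep each. The pooled sheep were not separated here, so the library was the replicate (n = 3 OVT73 and n = 4 control), and libraries are numbered within a group in the order of their deposition.

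Urea is formed when arginase splits arginine into urea and ornithine. In the liver this is the last step of a cycle that disposes of ammonia, and the brain is not known to run the whole cycle. Argininosuccinate synthase (ASS1) joins citrulline and aspartate, and argininosuccinate lyase (ASL) cleaves the product into arginine and fumarate, so that together they rebuild arginine from citrulline, also where nitric oxide synthase has released it. ARG1 is the cytosolic arginase of the liver, ARG2 is its mitochondrial counterpart in other tissues, and SLC14A1 is the urea transporter UT-B, a membrane channel of red cells, kidney vessels and astrocytes. Raised urea in the striatum of this line is the background of the comparison, which asked in which classes of nuclei the genes were read and whether their levels differed between OVT73 and control libraries.

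The libraries held 20887378 to 70473426 unique molecular identifiers (UMIs, each 1 captured transcript), and OVT73 library 1 was the largest in UMIs and in nuclei. After filtering, 8340, 5062 and 4037 nuclei were kept in OVT73 libraries 1 to 3, and 3102, 3906, 4018 and 4134 in control libraries 1 to 4. The added human HTT feature had 0.957 to 4.86 CPM (its UMIs scaled to the total of the library) in the OVT73 libraries and 0.0478 to 0.236 CPM in the control libraries, so every OVT73 library was above every control library. Summed over the pairs of libraries, 159 barcodes were shared. Of 29 clusters, 15 were named from marker transcripts as 11 classes (called "-like", since the names rest on transcripts alone), which held 87.6% of the nuclei kept. The members and the related genes below were left out of the clustering and of the marker lists. The astrocyte-like class joined cluster 10, led by DTHD1, COL22A1 and GFAP (1191 nuclei), and cluster 11, led by SLC1A2 and GLI3 (917 nuclei). Cluster 9 (1298 nuclei, led by NDST4, PDZRN3 and TOX3) had 6 of 7 neuroblast markers raised but met the naming rule for no class, and stayed unnamed. MSN stands for medium spiny neuron, the projection neuron of the striatum. Levels are given as CPM of the UMIs of a class and are compared within a gene only, since gene lengths were not at hand. Intervals and limits cover counting error only.

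SLC14A1 was read mainly in astrocyte-like nuclei. Of its 272 UMIs in all nuclei kept, 173 lay there, which is 63.6% (95% Wilson interval 57.7% to 69.1%) in a class that gave 3.25% of all UMIs. In astrocyte-like nuclei the OVT73 libraries had 79, 21 and 34 UMIs, or 30.3, 19.3 and 26.7 CPM. The control libraries had 10, 14, 10 and 5 UMIs, or 21.1, 45.7, 12.7 and 9.53 CPM. Control library 2, with the highest level, and control libraries 3 and 4, with the lowest, enclosed the OVT73 libraries. In all 7 libraries the astrocyte-like class had the highest SLC14A1 level of the 11 named classes and cluster 9. The lowest astrocyte-like library, at 9.53 CPM, was above the highest library of the next class, the OPC-like nuclei (oligodendrocyte precursors), at 7.57 CPM. It was not above the highest library of cluster 9, control library 2, at 9.63 CPM from 1 UMI.

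OPC-like nuclei had 49 SLC14A1 UMIs, spread over all 7 libraries at 2.26 to 7.57 CPM, with a mean of 4.14 ± 1.64 CPM (SD, n = 7). In the far more numerous oligodendrocyte-like nuclei (15134) only 3 UMIs were read, a pooled level of 0.0948 CPM. D1 MSN-like nuclei had 5 UMIs and D2 MSN-like nuclei 9, of which 7 lay in a single nucleus of OVT73 library 1. Microglia-like and eccentric MSN-like nuclei had 1 UMI each. None was read in PV/Th interneuron-like nuclei, where a count of 0 allows up to 0.467 CPM, in SST/NPY interneuron-like nuclei (up to 1.55 CPM) or in cholinergic interneuron-like nuclei (up to 2.26 CPM). The 52 endothelial-like nuclei held so few UMIs that 0 allows up to 38.9 CPM, so SLC14A1 in vessels could not be assessed at this depth. Cluster 9 had 8 UMIs in 4 nuclei, 5 of them in 1 nucleus, and its libraries ranged from 0 to 9.63 CPM. The other unnamed clusters held 23 SLC14A1 UMIs (8.46%). Among these clusters was cluster 23 (131 nuclei), led by SLC7A11, SLC1A2 and GLI3, in which 11 of 11 microglia markers were raised. Some nuclei with astrocyte transcripts thus lay outside the astrocyte-like class. From the OPC-like class downward, neighbouring classes overlapped in the ranges of their libraries.

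Per nucleus, an SLC14A1 UMI was found in 124 of 2108 astrocyte-like nuclei (5.88%, median depth 2679 UMIs). The share was 1.51% in OPC-like nuclei (median 3594 UMIs), and 0.191% in D1 MSN-like nuclei at the much greater median depth of 22386 UMIs. Free RNA was not measured, and the 5 D1 MSN-like UMIs came from OVT73 libraries 1 and 2 only. With each nucleus thinned to 1000 UMIs, and 117 shallower astrocyte-like nuclei left out, the share was 2.31% in astrocyte-like and 0.557% in OPC-like nuclei. None of 13412 oligodendrocyte-like and none of 2618 D1 MSN-like nuclei kept a UMI. These 2 classes held only 3 and 5 UMIs before thinning, so 0 was likely beforehand and adds no contrast. Most of the astrocyte-like nuclei with the transcript had a single UMI (97 nuclei), 15 had 2, 8 had 3, and the highest count was 9.

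**Figure D1:**
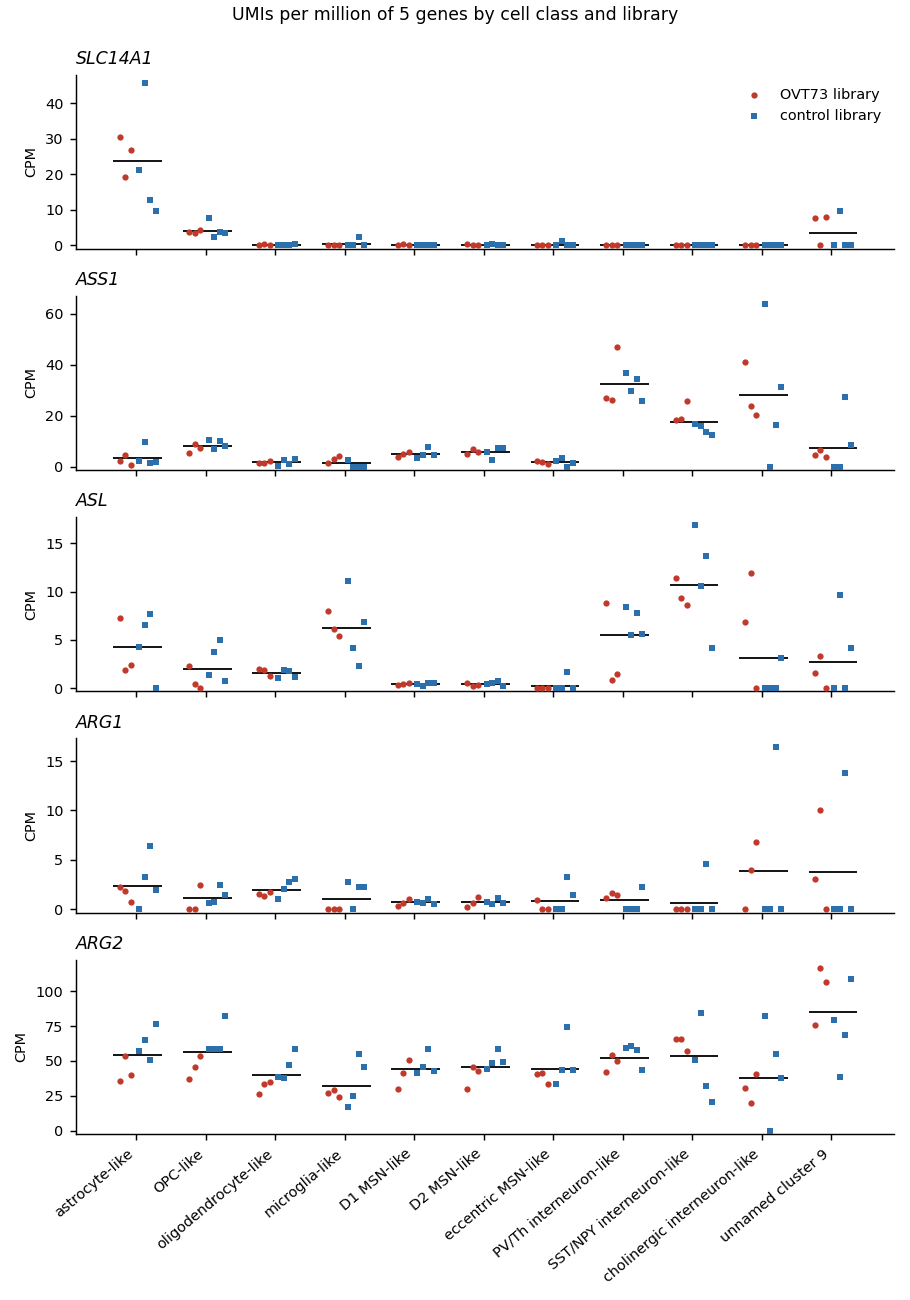
Each panel plots 1 gene, with cell classes on the horizontal axis and CPM (linear, own scale per gene) on the vertical axis. Red circles are the 3 OVT73 libraries, blue squares the 4 control libraries and bars the mean of the 7, with endothelial-like nuclei left out for their few UMIs. SLC14A1 stands out in astrocyte-like nuclei (9.53 to 45.7 CPM), ASS1 in the interneuron-like classes, and ARG2 is spread over all classes.

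Within the astrocyte-like class SLC14A1 was uneven. Dividing the class further gave 4 sub-clusters, which are described by number and without a test. Sub-cluster 4 (340 nuclei), led by FOS, COL21A1 and NR4A1 and with the highest GFAP level (1363 CPM; GFAP is the intermediate filament of astrocytes), had 84 SLC14A1 UMIs, or 87.3 CPM, and 18.5% of its nuclei had a UMI. Its libraries had 138, 71.2 and 21.3 CPM in OVT73 and 43.9, 108, 67.4 and 47.5 CPM in control, the highest of the 4 sub-clusters in 6 of 7 libraries, OVT73 library 3 being the exception. These levels rest on 53, 7 and 3 UMIs in OVT73 and on 4, 5, 8 and 4 UMIs in control libraries. The share of its nuclei with a UMI was 32.3% in OVT73 library 1 and 4.08% to 16.2% in the other libraries. Sub-cluster 1 had 894 nuclei and 6408 CPM of the glutamate transporter gene SLC1A2, against 1677 CPM in sub-cluster 4. It had 72 SLC14A1 UMIs, or 17.6 CPM. Sub-cluster 2 (511 nuclei, led by TTR and NPSR1) had 17 UMIs, or 14.5 CPM. Sub-cluster 3 (363 nuclei) had no SLC14A1 UMI in any library, which allows up to 3.62 CPM. Its leading genes were TRDN, DLL3, KCNH7 and PDGFRA, and it had the lowest level of the water channel gene AQP4 of the 4 sub-clusters (60.4 CPM) and the highest of DCX (250.1 CPM), a neuroblast transcript, so that it had the weakest astrocyte transcripts of the class. The other members did not follow this order: ARG2, for example, had 49.8, 49.4, 39.9 and 35.3 CPM in sub-clusters 1 to 4.

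**Figure D2:**
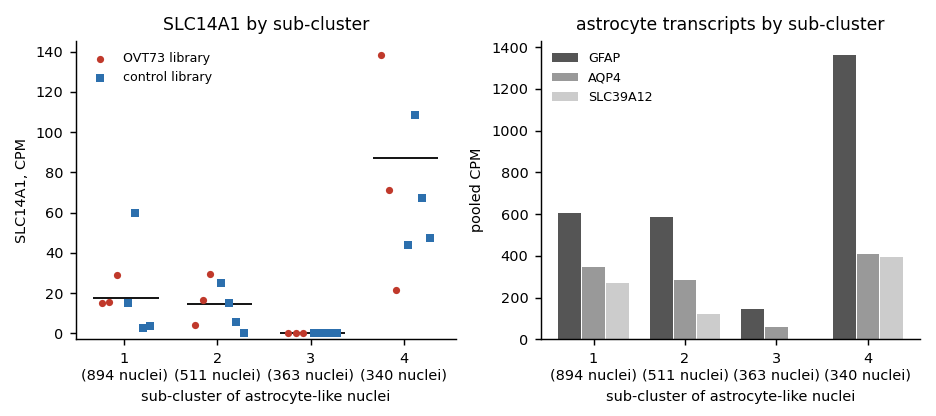
Left, SLC14A1 CPM by library in the 4 sub-clusters of astrocyte-like nuclei, with red circles for OVT73 libraries, blue squares for control libraries and a bar for the pooled level. Right, pooled CPM of 3 astrocyte transcripts in the same sub-clusters. SLC14A1 runs from 0 in every library of sub-cluster 3 to a pooled 87.3 CPM in sub-cluster 4, where GFAP is also highest. SLC1A2, which is not plotted, is highest in sub-cluster 1 (6408 CPM), with 1677 CPM in sub-cluster 4. Of the 84 UMIs in sub-cluster 4, 53 came from OVT73 library 1.

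ASS1 was highest in interneuron-like nuclei. PV/Th interneuron-like nuclei had 198 UMIs, at 26.9, 26.2 and 47.0 CPM in the OVT73 and 36.5, 29.5, 34.2 and 25.7 CPM in the control libraries. SST/NPY interneuron-like nuclei had 17.4 ± 4.39 CPM (SD, n = 7) from 35 UMIs. Cholinergic interneuron-like nuclei had 28.1 ± 20.2 CPM (SD, n = 7) from 41 UMIs, with 63.7 CPM in control library 1 and no UMI in control library 2, whose 11 such nuclei held only 26781 UMIs. The lowest SST/NPY interneuron-like library, at 12.3 CPM, lay above the highest OPC-like library, at 10.3 CPM, but not above the highest library of cluster 9 (27.5 CPM, from 2 UMIs). OPC-like nuclei followed with 8.12 ± 1.71 CPM, then D2 MSN-like nuclei with 5.83 ± 1.72 and D1 MSN-like nuclei with 5.07 ± 1.44 CPM (SD, n = 7 each), and these neighbours overlapped. Astrocyte-like nuclei had 3.25 ± 3.13 CPM (SD, n = 7) from 18 UMIs, and oligodendrocyte-like nuclei 1.70 ± 0.975 CPM. The D1 and D2 MSN-like nuclei were nonetheless the largest source of ASS1 UMIs by number (335 and 318 of 1224), and they gave 32.3% and 25.2% of the UMIs of all nuclei. Unnamed cluster 15 (376 nuclei, led by NPY and SST) had 39.6 CPM of ASS1 from 29 UMIs.

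ASL, the next enzyme, was sparse, with 271 UMIs in all. It was highest in SST/NPY interneuron-like nuclei, at 11.4, 9.38 and 8.61 CPM in the OVT73 and 16.9, 10.5, 13.7 and 4.11 CPM in the control libraries, from 20 UMIs. Microglia-like nuclei had 6.25 ± 2.83 CPM, PV/Th interneuron-like nuclei 5.48 ± 3.24 CPM and astrocyte-like nuclei 4.27 ± 2.98 CPM (SD, n = 7 each), and these classes overlapped with each other and with the SST/NPY interneuron-like class. In D1 and D2 MSN-like nuclei ASL was at 0.418 ± 0.116 and 0.399 ± 0.187 CPM (SD, n = 7 each). All libraries of these classes were below the lowest oligodendrocyte-like library, at 1.04 CPM.

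The SST/NPY interneuron-like class also carried the neuronal nitric oxide synthase gene NOS1, which makes citrulline from arginine and was not used to name it. NOS1 was at 664 to 1471 CPM in the libraries of this class, against 14.3 pooled CPM in PV/Th interneuron-like and 7.35 pooled CPM in eccentric MSN-like nuclei. In this class 101 nuclei had a NOS1 UMI. Of these 101, 25 also had an ASS1 UMI and 16 an ASL UMI, and 36 had at least 1 of these. With NOS1 read in nearly all nuclei of the class, such overlaps were nearly fixed beforehand and show no link between the genes. ASS1 and ASL were found together in 5 SST/NPY interneuron-like nuclei, and in 10 of 395 PV/Th interneuron-like nuclei, where 117 had ASS1 and 34 had ASL. Whether they met more often than their separate frequencies give was not tested. At these depths a nucleus without a UMI is not shown to lack the transcript.

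The arginases differed in spread. ARG1 had 209 UMIs in all and no class in which it stood apart. Endothelial-like nuclei had no ARG1 UMI, which allows up to 38.9 CPM. The other class means ran from 0.653 CPM in SST/NPY interneuron-like nuclei (1 UMI) to 3.89 CPM in cholinergic interneuron-like nuclei (5 UMIs). The range of the libraries of every class overlapped that of the next. ARG2 had 9110 UMIs and was read in all 11 named classes. Cluster 9 had the highest mean, 84.9 ± 27.6 CPM, with OVT73 libraries from 75.7 to 117 CPM and control libraries at 79.5, 38.5, 68.7 and 109 CPM. It ranked highest in each OVT73 library but in no control library. In control libraries 1 to 4 the highest were cholinergic interneuron-like, SST/NPY interneuron-like, eccentric MSN-like and endothelial-like nuclei, from 9, 16, 45 and 2 UMIs. Cluster 9 itself had 12, 4, 5 and 26 ARG2 UMIs in these libraries, so the ranks rest on few UMIs. OPC-like nuclei had 56.3 ± 14.1, PV/Th interneuron-like 52.4 ± 7.48, D2 MSN-like 45.6 ± 8.76, D1 MSN-like 44.3 ± 8.70 and oligodendrocyte-like nuclei 39.8 ± 10.4 CPM (SD, n = 7 each). Astrocyte-like nuclei had a mean of 54.1 CPM, with libraries from 35.7 to 76.2. Microglia-like nuclei had the lowest mean, 31.7 ± 13.5 CPM. All neighbours in this order overlapped. D1 MSN-like nuclei gave 31.5% of the ARG2 UMIs and 32.3% of all UMIs, and oligodendrocyte-like nuclei 12.9% and 14.6%. As a ratio, though not in percentage points, the shares lay further apart in OPC-like nuclei (6.87% and 5.49%), microglia-like nuclei (1.46% and 2.02%) and cluster 9 (1.75% and 0.821%).

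OVT73 and control libraries were compared with edgeR's quasi-likelihood test on UMIs summed per class and library, in the 8 named classes and cluster 9 that had at least 10 nuclei in every library, and over all nuclei. Of the members, ARG2 passed the filter on low counts in all 10 sums, ASS1 in 5, SLC14A1 in astrocyte-like nuclei and over all nuclei, and ASL and ARG1 over all nuclei only. None of these 19 tests was called at an adjusted p of 0.05 (smallest adjusted p = 0.716, edgeR; none was called by DESeq2 or under any alternative). Calls were rare in general: 2 of 77623 gene tests in the 9 class sums (0.00258%; CPT2 in OPC-like and UBE2U in eccentric MSN-like nuclei, named after their values were seen) and 0.0% of 16055 genes over all nuclei. An unadjusted p under 0.05 was reached by 2 of the 14 member tests in class sums, both for ARG2, beside 5.06% of all gene tests there, and by 0 of the 5 over all nuclei, beside 5.45% of all genes. By the exact permutation test of the difference in mean normalized CPM (scaled by TMM factors), which cannot give a p below 0.0286 with these 35 splits, no member reached an adjusted p under 0.543 over the 19 tests.

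SLC14A1 was higher in OVT73 over all nuclei by a margin that did not pass either test. Its normalized CPM was 1.81, 1.13 and 1.67 in OVT73 and 0.992, 1.27, 0.794 and 0.427 in control libraries, so OVT73 library 2 fell below control library 2. The means were 1.54 ± 0.361 (SD, n = 3) and 0.871 ± 0.354 (SD, n = 4), a log2 fold change of 0.84 ± 0.38 (SE, adjusted p = 0.825, edgeR, exact permutation p = 0.0857, two-sided). Among all nuclei kept, the share of astrocyte-like nuclei was 8.27%, 6.50% and 9.07% in OVT73 and 5.32%, 3.17%, 5.65% and 5.01% in control libraries, with all OVT73 libraries above all control libraries (difference 3.16 percentage points; exact permutation p = 0.0286, two-sided, the smallest possible). The share of oligodendrocyte-like nuclei, the largest class, lay the other way, at 45.2%, 39.2% and 40.0% in OVT73 and 48.0%, 54.7%, 54.4% and 47.2% in control libraries. Of the nuclei that were not oligodendrocyte-like, a denominator added with the values in view, astrocyte-like nuclei made up 15.1%, 10.7% and 15.1% in OVT73 and 10.2%, 7.01%, 12.4% and 9.49% in control libraries. The groups then overlapped (difference 3.85 percentage points, exact permutation p = 0.114, two-sided). When sums were made without the astrocyte-like nuclei, which was added with the values in view, the log2 fold change of SLC14A1 was 0.30 (adjusted p = 0.876, edgeR). In sums over all nuclei, fewer nuclei of a class and less RNA per nucleus cannot be told apart. The CPM over all nuclei depends on the share of UMIs of a class, not of nuclei. In OVT73 library 2 the astrocyte-like class held 1089938 UMIs, beside 37905508 UMIs of tested genes over all nuclei. In control library 3 these were 785979 and 21290493, a higher share, so by UMIs the groups overlapped in this pair of libraries. In OVT73 libraries 1 and 3 they were 2604587 of 66007903 and 1274291 of 26119118. In control libraries 1, 2 and 4 they were 473127 of 20896051, 306228 of 19143043 and 524802 of 25416842. Every other pair of an OVT73 and a control library thus had the higher share in OVT73. How much of the difference over all nuclei the share of astrocyte-like nuclei accounts for was not tested.

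Within astrocyte-like nuclei the SLC14A1 groups overlapped widely. Normalized CPM was 31.2, 20.5 and 27.5 in OVT73 and 21.4, 46.9, 12.9 and 9.73 in control libraries. The means were 26.4 ± 5.43 (SD, n = 3) and 22.7 ± 16.9 (SD, n = 4), with a log2 fold change of 0.42 ± 0.42 (SE, adjusted p = 0.999, edgeR, exact permutation p = 0.80, two-sided). Without control library 2 the log2 fold change was 0.90, and with only the libraries that pool 2 sheep it was 1.23, neither of them called (adjusted p = 0.907 and 0.509, edgeR). It was 0.16 without control library 4, 0.19 without control library 3 and 0.25 without OVT73 library 1. OVT73 library 1 gave 45.7% of the SLC14A1 UMIs of the class. The share of astrocyte-like nuclei with an SLC14A1 UMI, thinned to 1000 UMIs, was 3.63%, 0.935% and 1.75% in OVT73 and 3.11%, 2.61%, 1.49% and 1.06% in control libraries, with means of 2.10% and 2.07% (exact permutation p = 1.0, two-sided). Unthinned it was 6.19% ± 2.09 (SD, n = 3) and 4.49% ± 2.14 (SD, n = 4) (exact permutation p = 0.343, two-sided). Cluster 10 took 54.0% of the astrocyte-like nuclei in OVT73 and 61.3% in control libraries (exact permutation p = 0.20, two-sided), and sub-cluster 4, where the transcript was highest, 10.6% to 18.0% against 16.1% to 22.4% (exact permutation p = 0.171, two-sided).

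**Figure D3:**
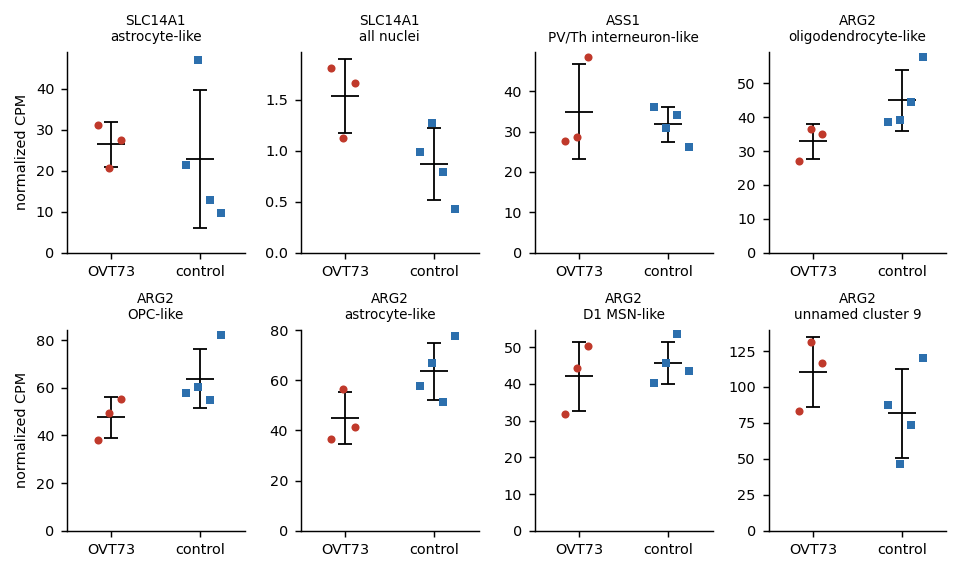
Normalized CPM (linear axes from 0) of members in selected classes and over all nuclei, with red circles for OVT73 libraries, blue squares for control libraries, and the mean with its SD in black. The SLC14A1 groups overlap in astrocyte-like nuclei and over all nuclei, and ARG2 in oligodendrocyte-like nuclei is the panel in which all OVT73 libraries lie below all control libraries.

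ARG2 was lower on average in OVT73 in the 4 glial classes tested, without passing the test in any. These classes come from the same 7 libraries, so their shared sign is not repeated evidence. A fitted log2 fold change below 0 was also found for 52.3% to 53.6% of the genes tested in them. In oligodendrocyte-like nuclei the normalized CPM of ARG2 was 26.9, 36.5 and 35.2 in OVT73 and 38.6, 39.0, 44.4 and 57.7 in control libraries. All OVT73 libraries lay below all control libraries there, which also held for 3.12% of the genes tested in that class. The log2 fold change was -0.46 ± 0.18 (SE, adjusted p = 0.873, edgeR, exact permutation p = 0.0857, two-sided). In normalized CPM this was the only one of the 14 member tests in class sums without overlap between the groups, beside 2.8% of all gene tests with all OVT73 libraries below and 3.35% with all above. In OPC-like nuclei ARG2 was at 38.2, 49.5 and 55.2 in OVT73 and 57.8, 60.3, 55.0 and 82.0 normalized CPM in control libraries, where only control library 3 reached into the OVT73 range (log2 fold change -0.44 ± 0.19, SE, adjusted p = 0.716, edgeR, exact permutation p = 0.0857). In CPM without TMM factors the groups did not overlap there either, at 36.7, 45.6 and 53.7 against 58.5, 58.8, 58.3 and 82.3 (exact permutation p = 0.0286, or 0.407 adjusted over the 19 tests). In astrocyte-like nuclei it was at 36.8, 56.7 and 41.2 against 57.9, 67.0, 51.4 and 77.9 normalized CPM (log2 fold change -0.51 ± 0.24, SE, adjusted p = 0.999, edgeR, exact permutation p = 0.114). In microglia-like nuclei the log2 fold change was -0.42 ± 0.37 (SE), with control libraries from 17.2 to 57.1 normalized CPM around the OVT73 range of 25.0 to 31.3.

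Neuron-like classes had smaller ARG2 differences. Estimates on the log2 scale were -0.12 ± 0.17 in D1 MSN-like, -0.25 ± 0.17 in D2 MSN-like, -0.25 ± 0.25 in eccentric MSN-like and -0.12 ± 0.21 in PV/Th interneuron-like nuclei (SE). In cluster 9 it had the opposite sign, 0.28 ± 0.33 (SE, adjusted p = 0.989, edgeR), with 83.1, 131 and 117 normalized CPM in OVT73 and 87.6, 46.1, 73.2 and 120 in control libraries. OVT73 library 1 had the lowest ARG2 level of the 7 libraries over all nuclei (33.0 normalized CPM, against 43.6 to 49.1 in the other 6), and in D1 and D2 MSN-like, OPC-like, astrocyte-like, oligodendrocyte-like and PV/Th interneuron-like nuclei. Without it the log2 fold change was -0.32 in oligodendrocyte-like and 0.050 in D1 MSN-like nuclei. OVT73 library 1 also had the highest share of reads mapped to the transcriptome in the paper's summary of the 7 libraries. Its share of antisense reads was the lowest. Its ARG2 level over all nuclei was 31.4 CPM without TMM factors. The library with the lowest transcriptome share was a control library and had the highest such level, 55.2 CPM. The other libraries lay between in both. Whether the ARG2 differences follow from read mapping was not tested. Whether the difference between glial and neuron-like classes exceeds error was not tested.

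ASS1 levels of the groups overlapped in every class tested. In PV/Th interneuron-like nuclei normalized CPM was 27.7, 28.7 and 48.5 in OVT73 and 36.3, 30.9, 34.1 and 26.3 in control libraries, so that OVT73 library 3 was the highest of all and the other two were among the lowest (log2 fold change 0.090 ± 0.28, SE, adjusted p = 0.999, edgeR, exact permutation p = 0.771). Fitted log2 differences in D1 MSN-like, D2 MSN-like and OPC-like nuclei were 0.029 ± 0.29, 0.11 ± 0.33 and -0.18 ± 0.36 (SE). Over all nuclei ASS1 was at 5.14, 6.62 and 6.37 in OVT73 and 5.67, 5.03, 5.47 and 6.13 normalized CPM in control libraries (log2 fold change 0.11 ± 0.18, SE, adjusted p = 0.906, edgeR). ASL over all nuclei was at 1.61, 0.983 and 0.834 against 1.28, 1.48, 1.55 and 0.854 normalized CPM, a log2 fold change of -0.15 ± 0.35 (SE). ARG1 was at 0.652, 0.955 and 1.21 against 0.708, 0.90, 1.75 and 1.13 normalized CPM, a log2 fold change of -0.29 ± 0.39 (SE). For all of ASS1, ASL and ARG1 the ranges of the groups overlapped.

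**Figure D4:**
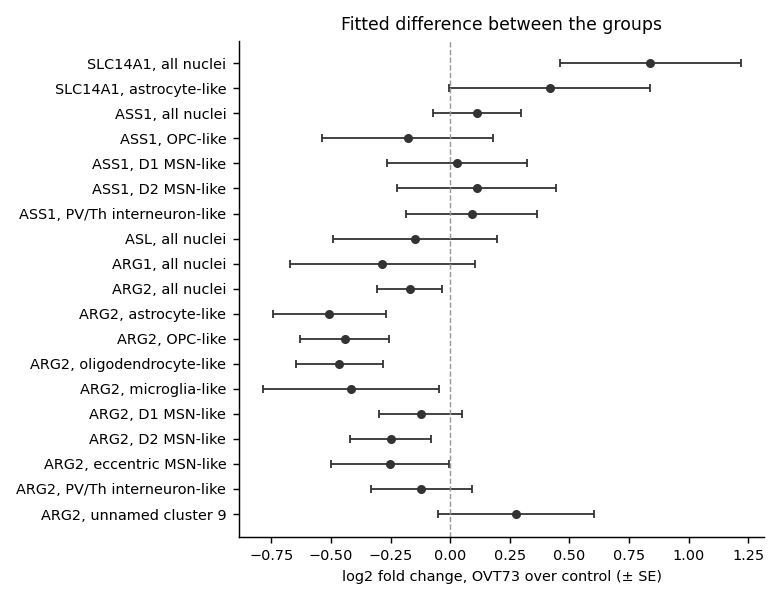
Fitted log2 fold change (OVT73 over control, horizontal axis) with its SE for each of the 19 tests of a member in a class or over all nuclei (vertical axis). The estimates for ARG2 lie below 0 except in cluster 9 (0.28), SLC14A1 over all nuclei is the highest at 0.84, and none was called.

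The genes around the urea cycle were examined as a list of 36, of which 33 were in the gene list by symbol (SLC14A2, AQP7 and SMS were not). The mitochondrial enzymes that begin the hepatic cycle had few UMIs: over all nuclei the carbamoyl phosphate synthetase gene CPS1 had 148 UMIs, the ornithine transcarbamylase gene OTC 134 and the N-acetylglutamate synthase gene NAGS 38. For 5 of the 6 groups of the list the gene with the most UMIs is given with its pooled CPM over all nuclei, which is not scaled by length and ranks UMIs, not transcript levels. These were SLC25A12, the neuronal aspartate-glutamate carrier (162 CPM), AQP9, a channel for water, glycerol and urea (0.267 CPM), SLC3A2, the shared heavy chain of amino acid transporters (21.6 CPM), DDAH1, which breaks down methylated arginines that inhibit nitric oxide synthase (83.2 CPM), and GATM, which starts creatine synthesis from arginine (118 CPM). DDAH1 was highest in astrocyte-like nuclei (550 CPM), as was the cationic amino acid transporter gene SLC7A2 (75.1 CPM against 13.3 in oligodendrocyte-like nuclei). SLC7A2, CPS1, OTC and NAGS were named after their values were seen.

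**Figure D5:**
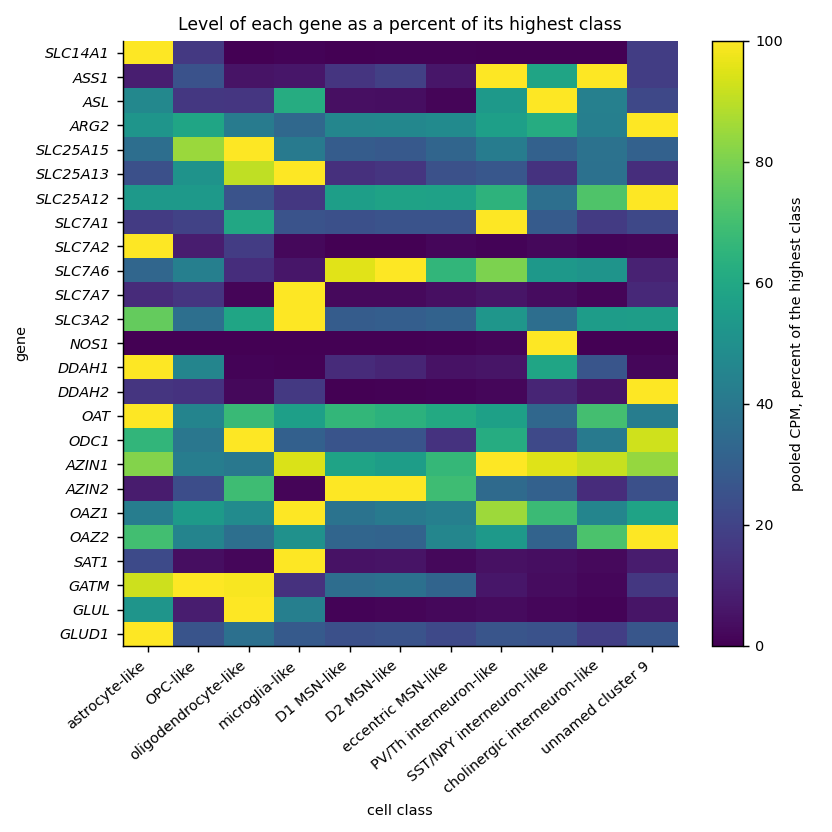
Colour shows the pooled CPM of a gene in a class (columns) as a percent of that gene's highest class, for the members and the listed genes (rows) that reached 10 CPM in a class, with endothelial-like nuclei and 1 gene that is not reported left out. SLC14A1, SLC7A2 and DDAH1 peak in astrocyte-like nuclei, ASS1 in PV/Th and cholinergic interneuron-like nuclei, and ASL and NOS1 in SST/NPY interneuron-like nuclei.

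Between OVT73 and control libraries none of the 143 tests of listed genes in class sums was called (edgeR, and none by DESeq2). An unadjusted p under 0.05 was reached by 6 of them, beside 5.06% of all gene tests (edgeR). Of these 143 tests, 5 had all OVT73 libraries above and 5 all below the control libraries, beside 3.35% and 2.8% of all gene tests. These counts lie near the background, so the genes named next are a listing and not a result. The median log2 fold change was 0.014, and -0.017 over all genes tested. Those above included AZIN1 in D2 MSN-like, DDAH1 in D1 MSN-like, OAZ2 in PV/Th interneuron-like nuclei and DDAH2 in cluster 9. Below were SLC3A2 and SLC7A7 in OPC-like, SLC7A1 in D2 MSN-like, SAT1 in D1 MSN-like and OAZ2 in eccentric MSN-like nuclei. OAZ2, an antizyme that restrains polyamine synthesis, is in both listings, and a difference between its classes was not tested. SLC7A7 and SLC3A2, whose products pair as an arginine transporter, were at 26.5 ± 2.16 and 16.8 ± 4.73 normalized CPM in OVT73 (SD, n = 3) and 32.7 ± 1.93 and 24.6 ± 1.85 in control OPC-like nuclei (SD, n = 4; adjusted p = 0.751 and 0.721, edgeR).

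Over all nuclei, 26 listed genes were tested and none was called (edgeR, and none by DESeq2). An unadjusted p under 0.05 was reached by 3 of the 26, beside 5.45% of all genes (edgeR). DDAH1 lay above in all OVT73 libraries (90.9 to 98.1 against 57.8 to 81.7 normalized CPM; log2 fold change 0.40 ± 0.14, SE, adjusted p = 0.825, edgeR). The inducible nitric oxide synthase gene NOS2 lay below in all (0.795 to 0.948 against 1.36 to 1.88 normalized CPM; log2 fold change -0.86 ± 0.29, SE, adjusted p = 0.825, edgeR). Of the 26 listed genes, 1 thus lay above and 1 below, beside 3.08% and 3.3% of all genes over all nuclei. These counts lie near the background, so DDAH1 and NOS2 are a listing and not a result. DDAH1, like SLC14A1, was highest in astrocyte-like nuclei, whose share of all nuclei was higher in the OVT73 libraries. It was also read at 251 pooled CPM in OPC-like and 68.5 pooled CPM in D1 MSN-like nuclei, a class with 32.3% of all UMIs. The part of any class share in the DDAH1 difference was not tested.

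The genes whose level followed each member most closely over the 56 sums of 8 named classes and 7 libraries were found among 11998 genes (Pearson r of log2(CPM + 1), a description; the sums of a class share their nuclei types and the libraries their depth). For SLC14A1 the 5 were PAX6 (r = 0.95), BBOX1 (0.94), ELN (0.93) and a pair of genes without a symbol (0.94 and 0.92). For ASS1 they were RET (0.83), PTHLH (0.81), SFRP4 (0.81), ADAMTS15 (0.79) and IGFBP4 (0.79), of which PTHLH was a marker of the PV/Th interneuron-like class. For ASL they were ATOX1 (0.81), HERPUD1 (0.81), ELOB (0.80), MAF (0.80) and HAUS4 (0.80). ASL reached 10 CPM only in SST/NPY interneuron-like nuclei (10.3 pooled CPM), which were not among the 8 classes. Within those classes its highest pooled level was 6.39 CPM, in microglia-like nuclei, so its correlations rest on few UMIs. For ARG2 they were a gene without a symbol (0.82), PLA2G12A (0.79), ACSM3 (0.78), HSD11B1 (0.76) and PLBD1 (0.74). ARG1 stayed below 10 CPM in all classes and was left out.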

How the data were processed

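Single-nucleus libraries of 3′ RNA (10x Genomics) were made by the authors from frozen sheep striatum. Per the submitters' processing notes the tools included Cell Ranger 7.0.0 and STAR 2.7.2a, and the genome was Oar_rambouillet_v1.0. The setting for intronic reads is not stated in the sources used here. In the paper's summary of the 7 libraries, more reads mapped to the transcriptome than to exons in each, so intronic reads appear to have been counted. The values the authors deposited are raw counts of UMIs per gene and barcode for each library, before assignment of barcodes to sheep and before quality control. The files give no gene lengths, and no genome of this build was at hand, so no coordinates or sequences are given.

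Filters kept nuclei in which 200 to 7500 genes were detected and mitochondrial UMIs made up no more than 5%, and the 4% with the highest doublet scores (scrublet in scanpy 1.11.5) were removed per library. The 3000 most variable genes without the members and listed genes gave 30 components, corrected between libraries by a Harmony-style step and clustered on 20 neighbours at resolution 1.0 (igraph 0.11.9). A cluster was named when 3 or more markers of a class exceeded the other nuclei by over 1.0 (log2, on CPM + 5), at least 1 of its markers was among the 10 leading genes, and no other class had 3 raised markers at 0.4 or more of their mean raise. UMIs were summed per class and library and tested by edgeR 4.0.16 under R 4.3.3 (TMM scaling after filterByExpr, then the robust quasi-likelihood test, two-sided, no covariate), with Benjamini-Hochberg adjustment over all genes of a sum. Exact permutation tests ran over the 35 ways to choose 3 of 7 libraries. Scripts were tested on simulated data. Alternatives were DESeq2 1.42.0, no TMM factors, no filter, each library left out, libraries of 2 sheep only, doublets kept, resolution 0.5, no correction between libraries and equal numbers of nuclei.

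All 5 members are named throughout. Of the listed genes, those called, those without overlap between the groups and those with the most UMIs in each group are named, except 1 gene that is not reported here. The 5 genes most like each member with at least 10 CPM in a class are given. The members and lists were chosen with earlier results of these data known.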

Additional observations from a re-analysis of the deposited data

How the results depend on the processing

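No member was called in any of the 274 alternative fits of its 19 tests. The sign of the log2 fold change was kept in 257 and differed in 17. For ASS1 in D1 MSN-like nuclei it was -0.076 without TMM factors, -0.22 with only the libraries of 2 sheep and -0.037 with equal numbers of nuclei, and from -0.14 to 0.25 with 1 library left out. For ASS1 in D2 MSN-like nuclei it was -0.0038 without TMM factors and -0.22 with only the libraries of 2 sheep, and from -0.11 to 0.28 with 1 library left out. For ARG2 in PV/Th interneuron-like nuclei it was 0.025 with only the libraries of 2 sheep. With 1 library left out, the ranges were -0.39 to 0.026 (ASS1, OPC-like), -0.27 to 0.050 (ARG2, D1 MSN-like), -0.16 to 0.25 (ASS1, PV/Th interneuron-like), -0.25 to 0.011 (ARG2, PV/Th interneuron-like), -0.49 to 0.015 (ARG1, all nuclei) and -0.49 to 0.037 (ASL, all nuclei). SLC14A1 stayed above 0 in every fit, from 0.16 to 1.23 in astrocyte-like nuclei. Over all nuclei it was 0.60 to 1.07 with 1 library left out, and at most 1.34. The sums without astrocyte-like nuclei gave 0.30. ARG2 stayed below 0 in oligodendrocyte-like (-0.64 to -0.32), OPC-like (-0.56 to -0.29), astrocyte-like (-0.88 to -0.34) and microglia-like nuclei (-0.90 to -0.14). The -0.88 was that of the DTHD1 and COL22A1 cluster alone. For the whole astrocyte-like class it was -0.70 to -0.37 with 1 library left out. ARG2 also stayed below 0 in D2 MSN-like (-0.41 to -0.067) and eccentric MSN-like nuclei (-0.49 to -0.0063) and over all nuclei (-0.28 to -0.025). In cluster 9 it stayed above 0 (0.056 to 0.58). All these sums come from the same libraries, so a sign that recurs over classes is not repeated evidence. The 2 genes called over the 9 class sums became 30 with DESeq2, 163 without a filter on low counts, 11 with only the libraries of 2 sheep, and 1 each without correction between libraries and with equal numbers of nuclei, and 0 to 3 with 1 library left out. Over all nuclei DESeq2 called 17 genes in place of 0. The cause was not tested. The difference in the share of astrocyte-like nuclei was 2.60 to 3.88 percentage points with 1 library left out, where the exact test cannot give a p under 0.05, and 3.70 of nuclei in named classes only, and 3.85 with an exact p of 0.114 of nuclei that are not oligodendrocyte-like (added after seeing the data). The difference in the thinned share of astrocyte-like nuclei with an SLC14A1 UMI was -0.724 to 0.624 percentage points with 1 library left out, around 0.0391 with all. The fits of SLC14A1 with equal numbers of nuclei and in the SLC1A2 and GLI3 cluster gave no value, since it did not pass the filter. No paired analysis was possible because replicate numbers were given in the order of accession and pair no libraries. SLC14A1, ASL and ARG1 had 209 to 272 UMIs each, which limits what their comparisons can show.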
